A study of Homo sapiens with 6 samples.

Results

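The hnRNP and SR proteins are 2 families of RNA-binding proteins that steer splice site choice. Their genes were taken as the rows of the deposited table whose symbol starts with HNRNP or is SRSF followed by a number, with pseudogene rows left out. This gave 37 of 31853 genes, 25 of them HNRNP rows and 12 SRSF rows, and 67 pseudogene rows were left out. Of the 25 HNRNP rows, 20 are ordinary coding genes. HNRNPA1L2 and HNRNPA1L3 are copies of HNRNPA1, HNRNPUL2-BSCL2 is a readthrough of neighbouring genes, and HNRNPD-DT and HNRNPK-AS1 are noncoding.

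The libraries come from Mon-Mac-6, an established human cell line of monocytic acute leukaemia, and were treated for 48 h, either with the solvent DMSO or with 500 nM WD6305, which the series title calls a PROTAC against METTL3. A PROTAC brings its target protein to an E3 ubiquitin ligase, and METTL3 is the catalytic subunit of the main m6A (N6-methyladenosine) writer complex. There were 3 poly(A) RNA libraries per treatment, and both treatments used this single line. No label says that the 3 libraries of a treatment were separate cultures, so p-values measure the spread between these libraries, which may be technical.

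As background, hnRNP proteins coat nascent transcripts and often hold back nearby splice sites, while SR proteins bind exonic enhancers through RNA recognition motifs and recruit the spliceosome through their arginine-serine tails. Both families tune their own transcripts, commonly by including an exon that sends the message to nonsense-mediated decay. HNRNPC and HNRNPA2B1 are also described as nuclear readers of m6A, HNRNPC through RNA structure that the mark loosens. In the deposited annotation all 12 SRSF genes and 12 of the 20 ordinary HNRNP genes have a transcript marked for nonsense-mediated decay. The table holds 1 value per gene and library, so exon use was not measured.

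Deposited counts summed to between 64525948 and 71155346 per library. METTL3 RNA itself was 70.5, 64.9 and 66.4 CPM (counts scaled to a common library size) with DMSO and 78.2, 76.0 and 79.7 CPM with WD6305, and no protein was measured. Among 11 monocytic markers, 10 had an FPKM (fragments scaled to gene length and library depth) of at least 1 in every library, and the whole list summed to 3286 to 3519.8 FPKM with DMSO and to 5412 to 6224 FPKM with WD6305. Most of that sum is LYZ, at 2891 to 3139 FPKM with DMSO and 4967 to 5752 FPKM with WD6305, and the list did not move as a group. LYZ, CD68, SPI1, CD33, PTPRC, ITGAM and CSF1R were higher in every WD6305 library than in every DMSO library, CD14 and MPO were lower, and CEBPA and FCGR1A overlapped. T cell markers CD3D, CD3E, CD3G and CD2 had no row, and a list of 6 T and NK cell genes summed to 138 to 184 FPKM, nearly all of it NKG7. The summed FPKM of 8 keratinocyte markers was 59.3 to 72.3 in 4 libraries but 3.11 in DMSO 3 and 2.83 in WD6305 1, so each treatment has 1 library without this signal. Nearly all of the difference lay in KRT5, KRT6A, KRT14 and KRT17, with DSP following at a low level. KRT10 was at 2.31 to 3.43 FPKM in every library, KRT1 at 0.380 or less and KRT2 at 0. The 5 fibroblast markers summed to 4.41 FPKM in WD6305 1 and to 0.130 to 0.270 in the other libraries. The part of these signals in the results below was not tested, and values without DMSO 3 and WD6305 1 are given where they change a call.

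Promoters of 5 members, chosen after their values were seen, are shown so that members that moved differently can be read side by side. HNRNPD fell most among the ordinary genes, HNRNPDL is its neighbour and relative, HNRNPH2 was the ordinary gene that rose, and HNRNPC and HNRNPA2B1 are the m6A readers. Each line holds the 250 bases before the RefSeq start on GRCh38.p14, 5′ to 3′ on the gene's strand, and capitals mark the motifs listed after the sequences. The windows are chr4:82373992-82374241, chr4:82430226-82430475, chr14:21269443-21269692 and chr7:26200747-26200996 on the minus strand and chrX:101407972-101408221 on the plus strand. Those of HNRNPD and HNRNPA2B1 lie inside the spans that the deposited table gives these genes, which start further upstream. Most of the HNRNPDL window also lies inside its gene's span, which reaches to 82430462. The HNRNPC window overlaps its gene's span, which reaches to 21269494, in part.
HNRNPD: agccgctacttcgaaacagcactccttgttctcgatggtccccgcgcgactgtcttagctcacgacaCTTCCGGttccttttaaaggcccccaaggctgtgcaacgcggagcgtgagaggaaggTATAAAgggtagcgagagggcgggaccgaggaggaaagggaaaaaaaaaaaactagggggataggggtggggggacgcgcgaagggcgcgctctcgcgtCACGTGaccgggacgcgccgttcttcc
HNRNPDL: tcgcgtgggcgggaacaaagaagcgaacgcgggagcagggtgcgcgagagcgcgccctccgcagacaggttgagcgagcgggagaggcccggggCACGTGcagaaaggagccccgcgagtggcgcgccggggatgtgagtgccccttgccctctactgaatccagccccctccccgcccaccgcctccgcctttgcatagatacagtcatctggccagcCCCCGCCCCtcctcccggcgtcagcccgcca
HNRNPH2: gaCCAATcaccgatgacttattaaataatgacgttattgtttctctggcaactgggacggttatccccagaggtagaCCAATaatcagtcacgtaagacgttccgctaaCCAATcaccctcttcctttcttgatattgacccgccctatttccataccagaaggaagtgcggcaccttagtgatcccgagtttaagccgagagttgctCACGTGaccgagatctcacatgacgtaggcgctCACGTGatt
HNRNPC: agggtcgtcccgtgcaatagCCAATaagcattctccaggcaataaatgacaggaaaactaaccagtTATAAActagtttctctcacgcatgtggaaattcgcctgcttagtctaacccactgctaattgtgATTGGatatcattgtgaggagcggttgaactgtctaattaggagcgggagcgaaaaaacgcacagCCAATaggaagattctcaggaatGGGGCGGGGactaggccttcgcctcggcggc
HNRNPA2B1: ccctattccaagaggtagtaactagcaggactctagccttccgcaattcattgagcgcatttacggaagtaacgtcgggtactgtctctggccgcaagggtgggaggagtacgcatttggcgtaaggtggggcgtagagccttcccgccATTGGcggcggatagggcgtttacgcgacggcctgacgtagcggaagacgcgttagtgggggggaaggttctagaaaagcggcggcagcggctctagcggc

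Promoters of 34 of the 37 members were matched by symbol, and HNRNPA1, HNRNPA1L3 and SRSF2 were not. Motifs were searched on both strands of these 250 bases, and none of the motifs contains another. The CCAAT box, CCAAT, was found in 16 of 34 members and in 33.0% of all 27305 RefSeq promoters. The E-box CACGTG was found in 6 members, HNRNPA3, HNRNPD, HNRNPDL, HNRNPH2, HNRNPH3 and HNRNPM, and in 6.49% of all promoters. Those 6 genes include 3 that fell, HNRNPD, HNRNPM and HNRNPA3, and 1 that rose, HNRNPH2. The SP1 site GGGGCGGGG was in 9 members (15.4% of all promoters), and the ETS site CCGGAAG (8.82%) and TATAAA (11.1%) were in 5 members each. A match describes these letters only.

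Under WD6305, 14 of the 37 members fell and 3 rose, and 20 did not pass the test (edgeR quasi-likelihood test, Benjamini-Hochberg adjusted p under 0.05 over 18138 genes). Over all genes tested, 11.2% were called lower and 12.2% higher. All 37 members passed the filter on low counts. The falls were HNRNPA2B1, HNRNPA3, HNRNPAB, HNRNPC, HNRNPD, HNRNPH1, HNRNPK, HNRNPL, HNRNPLL, HNRNPM, SRSF1, SRSF2, SRSF3 and SRSF7. HNRNPA1L2, HNRNPH2 and HNRNPUL2-BSCL2 rose. By family, 10 of 25 HNRNP rows fell and 3 rose, and 4 of 12 SRSF genes fell and 0 rose. Without DMSO 1 or WD6305 3, 6 HNRNP rows were called lower, and without DMSO 1, WD6305 1 or WD6305 2 only 1 was called higher. Of the SRSF genes 1 was called lower without DMSO 1, WD6305 2 or WD6305 3, 0 without WD6305 1, and 1 was called higher without DMSO 3. In bulk RNA, fewer cells of a type and less RNA per cell cannot be told apart.

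The members are abundant, and abundant genes are called more often. Among the 6288 tested genes with a mean FPKM of at least 5, 21.2% were called lower and 18.8% higher. Of the 31 ordinary members at that level, 14 fell and 1 rose, or 45.2% and 3.23%. The changes were small. Their median log2 fold change was -0.13, against -0.02 for the 6288 genes, and their range was -0.46 to 0.27. The groups of libraries did not overlap for 22 of all 37 members, 18 lower and 4 higher, where 40.8% of all genes tested, 20.3% lower and 20.4% higher, did not overlap. For the 31 ordinary members of at least 5 FPKM it was 19, 18 lower and 1 higher, where 57.0% of the 6288 genes, 31.2% lower and 25.8% higher, did not overlap.

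**Figure D1:**
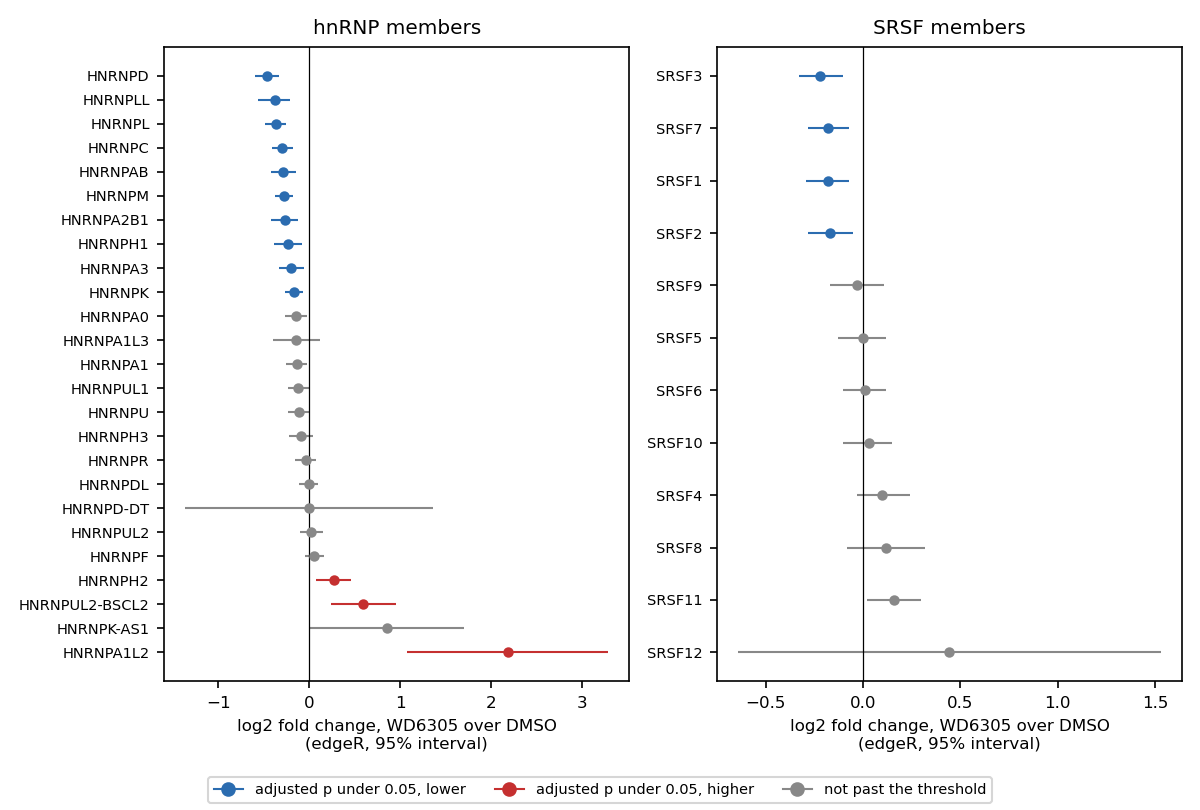
Log2 fold change of WD6305 over DMSO for the 25 HNRNP rows (left) and the 12 SRSF genes (right), with edgeR 95% intervals on separate horizontal scales, 3 libraries per treatment. Blue points fell, red points rose and grey points did not pass; the ordinary genes lie between -0.46 and 0.44, and HNRNPA1L2 lies far to the right at 2.18.

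HNRNPC, the tetramer-forming protein that binds uridine tracts, lies on chromosome 14 from 21209136 to 21269494 on the minus strand (GRCh38, as for all gene positions here). Its level was 1097, 1009 and 1011 CPM with DMSO and 824, 874 and 842 CPM with WD6305. The lowest DMSO library stood well above the highest WD6305 library. It fell by 18.5%, a log2 fold change of -0.30 (SE 0.05, 95% interval -0.41 to -0.18, edgeR adjusted p = 0.00419). The log2 fold change stayed between -0.33 and -0.26 over 17 alternative settings, with edgeR, limma or DESeq2 adjusted p of at most 0.0296.

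HNRNPA2B1, which binds UAG-containing RNA and is known for sorting of RNAs and for pri-miRNA processing, lies on chromosome 7 from 26171151 to 26201529 (minus strand). It stood at 1605, 1457 and 1702 CPM with DMSO and at 1283, 1379 and 1299 CPM with WD6305. The groups did not overlap, but DMSO 2 lay within 100 CPM of WD6305 2. Its log2 fold change was -0.27 (SE 0.07, edgeR adjusted p = 0.0187), and it fell by 16.9%. The call was lost without DMSO 1, WD6305 1 or WD6305 3, and without DMSO 3 and WD6305 1 together (edgeR adjusted p = 0.0524 to 0.0865). NFE2L3 and CBX3 overlap it on the opposite strand, and neither passed the test (log2 fold changes 0.03 and -0.10). The 95% interval of HNRNPA2B1, -0.42 to -0.12, holds the estimate for HNRNPC, and the difference between these genes was not tested.

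Among the other A/B type proteins, which carry a pair of RNA recognition motifs and a glycine-rich tail, HNRNPAB and HNRNPA3 fell, and HNRNPA1 and HNRNPA0 did not pass. HNRNPAB fell from 274, 273 and 292 CPM to 217, 224 and 247 CPM (log2 fold change -0.29, SE 0.06, edgeR adjusted p = 0.00777), with no overlap between the groups. HNRNPA3 stood at 808, 728 and 831 CPM with DMSO and at 669.9, 708 and 689 CPM with WD6305, with the lowest DMSO library just above the highest WD6305 one. Its log2 fold change was -0.20 (SE 0.06, edgeR adjusted p = 0.0408), and this call was lost without any 1 library but DMSO 2, with no filter on low counts, and without DMSO 3 and WD6305 1 together (edgeR adjusted p = 0.0757 to 0.161). NFE2L2, which overlaps HNRNPA3 on the opposite strand, rose (log2 fold change 0.34, edgeR adjusted p = 0.0332).

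HNRNPA1, the member with the highest FPKM and a classical antagonist of SRSF1 in splice site choice, did not pass. It stood at 1540.1, 1437 and 1507 CPM with DMSO and at 1320.1, 1395 and 1374 CPM with WD6305, groups that did not overlap. Its log2 fold change was -0.13 (95% interval -0.25 to -0.02, edgeR adjusted p = 0.0922). It passed with DESeq2, with limma on FPKM, among genes of at least 5 FPKM and with library sizes alone (adjusted p = 0.0230 to 0.0494). HNRNPA0, an intronless relative, had a log2 fold change of -0.15 (95% interval -0.27 to -0.02) and also missed (edgeR adjusted p = 0.0991). It passed with library sizes alone and with a term for DMSO 3 and WD6305 1 (edgeR adjusted p = 0.0468 to 0.0497).

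Reads of HNRNPA1 may be shared with its copies. The 34 HNRNPA1 pseudogene rows together held 2.49% to 2.86% of the HNRNPA1 counts, the 12 of HNRNPA3 held 1.69% to 2.10% of its counts, and the 5 of HNRNPC held 1.43% to 1.80%. Of all 67 pseudogene rows 26 were tested, and 0 passed in edgeR; the most abundant, HNRNPA1P7 and HNRNPCP2, had log2 fold changes of -0.28 and -0.16. HNRNPA1 summed with all its copies gave a mean ± SD over 3 libraries of 1545 ± 55.6 CPM under DMSO and 1407 ± 39.6 CPM under WD6305, a log2 ratio of -0.14.

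HNRNPA1L2 rose from a very low level. It is a processed copy of HNRNPA1 on chromosome 13 and had counts of 18, 14 and 30 with DMSO and of 44, 144 and 87 with WD6305. Every WD6305 library lay above every DMSO library, and WD6305 2 held over 3 times the count of WD6305 1. The log2 fold change was 2.18 (SE 0.49, 95% interval 1.07 to 3.28, edgeR adjusted p = 0.0122), and without WD6305 2 it was 1.72 and did not pass (edgeR adjusted p = 0.0587). The other copy, HNRNPA1L3, had a log2 fold change of -0.14 (edgeR adjusted p = 0.430). A gene without a symbol overlaps HNRNPA1L2 on the same strand at 18.8 CPM with DMSO and 15.8 CPM with WD6305, so the split of reads there is uncertain.

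HNRNPD, also known as AUF1, binds AU-rich elements and directs the decay of many short-lived messages. It lies on chromosome 4 from 82352498 to 82374503 (minus strand) and had the largest fall of the ordinary members. The libraries gave 507, 485 and 516 CPM with DMSO and 337, 383 and 373 CPM with WD6305, and the gap between the groups was wider than the spread within either. The log2 fold change was -0.46 (SE 0.06, 95% interval -0.60 to -0.33, edgeR adjusted p = 0.000730), and the level fell by 27.5%. Over the 17 alternatives it lay between -0.50 and -0.39. HNRNPDL, its relative on the same strand of chromosome 4, stood at 305, 297 and 312 CPM and then at 309, 292 and 312 CPM, with a 95% interval of -0.11 to 0.10. HNRNPD-DT, the divergent noncoding transcript at HNRNPD, was at 0.332 ± 0.187 CPM with DMSO, too low to show a change (95% interval -1.36 to 1.36).

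HNRNPL and HNRNPLL, which bind CA-rich RNA and are best known for excluding exons of the CD45 gene in leukocytes, both fell. HNRNPL, on chromosome 19 from 38836370 to 38852347 (minus strand), went from 460.4, 495 and 445 CPM to 365, 367 and 357 CPM (log2 fold change -0.36, SE 0.05, edgeR adjusted p = 0.00123). HNRNPLL, the relative induced in activated lymphocytes, went from 46.5, 52.3 and 50.9 CPM to 35.2, 39.4 and 40.2 CPM (-0.38, SE 0.08, edgeR adjusted p = 0.00797). Neither pair of groups overlapped. The ratio of one gene to the other moved by only 0.02 on the log2 scale.

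HNRNPM, a binder of GU-rich RNA, fell from 473, 455 and 466 CPM to 389.7, 387 and 373 CPM (log2 fold change -0.28, SE 0.04, edgeR adjusted p = 0.00196), with no overlap. HNRNPK, which binds cytosine-rich RNA and DNA through KH domains, stood at 1106, 1075 and 1072 CPM with DMSO and at 967, 961 and 964 CPM with WD6305. Its 3 treated libraries lay within 10 CPM of each other. The log2 fold change of HNRNPK was -0.17 (SE 0.04, edgeR adjusted p = 0.0214), and leaving out any library except DMSO 3 ended the call (edgeR adjusted p = 0.0553 to 0.0953). HNRNPK-AS1, its antisense transcript, was at 0.422, 0.747 and 0.567 CPM and then at 1.46, 0.828 and 0.853 CPM, and did not pass (log2 fold change 0.85, 95% interval 0.01 to 1.70, edgeR adjusted p = 0.136). The strand setting of the count step is not known from the sources at hand, so reads of HNRNPK and HNRNPK-AS1 cannot be told apart with certainty.

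The F/H proteins bind runs of guanines through quasi-RNA recognition motifs, and this group split. HNRNPH1 fell from 668, 666 and 725 CPM to 637, 551 and 561 CPM, with WD6305 1 close to the DMSO libraries (log2 fold change -0.23, SE 0.07, edgeR adjusted p = 0.0325). The HNRNPH1 call was lost without any 1 library but WD6305 1, and with no filter on low counts (edgeR adjusted p = 0.0563 to 0.134). HNRNPH2, its relative on chromosome X from 101408222 to 101414133 (plus strand), was at 91.7, 112 and 102 CPM with DMSO and at 119, 117 and 135 CPM with WD6305 (log2 fold change 0.27, SE 0.08, edgeR adjusted p = 0.0458). HNRNPF, at 501, 491 and 506 CPM and then 499, 543 and 512 CPM, and HNRNPH3, at 227 ± 15.8 and 214 ± 8.00 CPM, did not pass (95% intervals -0.05 to 0.16 and -0.22 to 0.04).

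The HNRNPH2 call was lost in 11 of 16 alternatives without a replicate block, namely limma on FPKM with either pseudocount, no filter, library sizes alone, upper quartile scaling, any 1 library but DMSO 2 left out, and DMSO 3 and WD6305 1 both left out (adjusted p = 0.0648 to 0.170). A readthrough row, RPL36A-HNRNPH2, overlaps it on the same strand and held 26.4, 0 and 32.3 CPM with DMSO and 30.4, 29.3 and 0.180 CPM with WD6305. The 2 libraries with almost nothing in that row, DMSO 2 and WD6305 3, were those with the highest HNRNPH2 in their group. Summed, both rows gave 118, 112 and 134 CPM with DMSO and 149, 146 and 135 CPM with WD6305, groups that just missed overlapping (log2 ratio 0.24, exact two-sided permutation p = 0.10, the smallest that 3 against 3 libraries can give).

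The U proteins, large nuclear scaffold factors, and HNRNPR did not pass. HNRNPU stood at 1376 ± 72.8 and 1275 ± 30.2 CPM (log2 fold change -0.11, 95% interval -0.23 to 0.01) and HNRNPUL1 at 706 ± 37.8 and 652 ± 15.1 CPM (-0.12, 95% interval -0.23 to 0.00), and neither gene's groups overlapped. HNRNPUL2 had an interval of -0.10 to 0.15 and HNRNPR one of -0.16 to 0.08.

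The readthrough row HNRNPUL2-BSCL2, whose only listed transcript is marked for nonsense-mediated decay, rose from 17.8, 15.2 and 19.0 CPM to 33.2, 21.9 and 23.4 CPM. WD6305 1 was the highest library by a wide margin. Its log2 fold change was 0.59 (SE 0.16, edgeR adjusted p = 0.0257) and was 0.39 without WD6305 1. The call was lost without WD6305 1, DMSO 1 or DMSO 2, and with no filter (edgeR adjusted p = 0.0584 to 0.10). The 2 rows it joins did not pass: HNRNPUL2 was at 254 ± 1.51 and 258 ± 17.9 CPM, and BSCL2 had 11.2 CPM with DMSO and 8.43 CPM with WD6305 (log2 fold change -0.41, edgeR adjusted p = 0.166). Reads on exons shared by these rows can be assigned to either, so the rise of the readthrough row is uncertain. Summed with BSCL2 it gave 29.2, 28.7 and 27.8 CPM with DMSO and 40.1, 32.6 and 31.1 CPM with WD6305, a log2 ratio of 0.28 with no overlap. Summed with HNRNPUL2 it gave 272, 270.2 and 271 CPM and then 272, 296 and 285 CPM, a log2 ratio of 0.07.

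**Figure D2:**
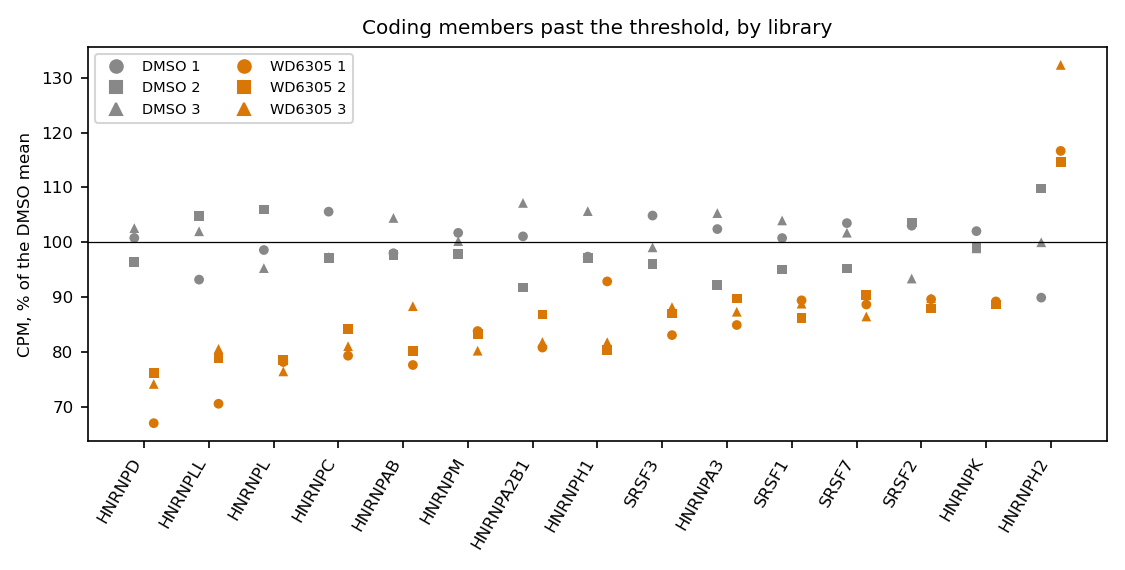
CPM of the 15 ordinary members past the threshold in each library, as a percentage of the DMSO mean of that gene; grey symbols are DMSO and orange symbols WD6305, and the shape gives the replicate number. For 14 genes every orange symbol lies under every grey one, lowest for HNRNPD, and for HNRNPH2 the order is reversed.

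Of the SR proteins, the 4 that fell are SRSF1, SRSF2, SRSF3 and SRSF7. SRSF3, on chromosome 6 from 36594353 to 36605600 (plus strand), is a small SR protein and an adaptor for messenger RNA export, and went from 452, 414 and 427 CPM to 358, 375 and 380.0 CPM (log2 fold change -0.22, SE 0.05, edgeR adjusted p = 0.0134), and leaving out WD6305 1 ended the call (edgeR adjusted p = 0.0584). SRSF7, a relative with a zinc knuckle, went from 237, 218 and 233 CPM to 203, 207 and 198 CPM (-0.18, SE 0.05, edgeR adjusted p = 0.0247). SRSF1, the founding member and a known oncoprotein, went from 564, 532 and 582 CPM to 500.4, 482 and 497 CPM (-0.18, SE 0.05, edgeR adjusted p = 0.0256). All 3 had DMSO libraries wholly above the WD6305 libraries.

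SRSF2, an exonic enhancer binder that is recurrently mutated in myeloid neoplasms, was at 545, 548 and 494 CPM with DMSO and at 474, 465 and 475 CPM with WD6305. DMSO 3 was its lowest control and lay closest to the treated libraries. The log2 fold change of SRSF2 was -0.17 (SE 0.05, edgeR adjusted p = 0.0471). Leaving out any library except DMSO 3, or using no filter, ended the SRSF2 call (edgeR adjusted p = 0.0894 to 0.155). SRSF1 lost its call without DMSO 1 or any WD6305 library, and without DMSO 3 and WD6305 1 together (edgeR adjusted p = 0.0583 to 0.0942). SRSF7 lost it in the same 5 settings and with no filter (edgeR adjusted p = 0.0535 to 0.116). Without DMSO 3 and WD6305 1 together, 2 SRSF genes were called lower and 0 higher, and without WD6305 1 alone 0 were called lower.

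The other 8 SRSF genes did not pass. SRSF5 and SRSF6 had log2 intervals of -0.13 to 0.12 and -0.10 to 0.12, and SRSF9, a close relative of SRSF1, one of -0.17 to 0.11. SRSF10, which represses splicing when dephosphorylated, SRSF4 and SRSF8 had intervals of -0.10 to 0.15, -0.03 to 0.24 and -0.08 to 0.32. SRSF11 had the highest log2 fold change of the abundant SR genes, 0.16 (95% interval 0.02 to 0.30, edgeR adjusted p = 0.103), at 163, 162 and 178 CPM with DMSO and 202, 176 and 184 CPM with WD6305. It passed without DMSO 3 and with a term for DMSO 3 and WD6305 1 (edgeR adjusted p = 0.0174 to 0.0404). SRSF12 was near the limit of detection at 0.819 ± 0.478 and 1.12 ± 0.471 CPM, with an interval of -0.64 to 1.53.

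Levels can be compared between genes only per length, in FPKM. With DMSO the highest were HNRNPA1 at 212 FPKM, HNRNPK at 203, SRSF2 at 169, HNRNPF at 145 and HNRNPC at 136. HNRNPLL (8.01 FPKM), SRSF8 (5.94) and SRSF12 (0.170) were the lowest of the ordinary genes. Adjacent members of this order often lie within each other's spread: HNRNPA1 was at 203 FPKM in DMSO 2, and HNRNPK at 204 FPKM in DMSO 1 and DMSO 3. Summed over the 25 HNRNP rows, FPKM was 1736, 1706 and 1805 with DMSO and 1513, 1569.8 and 1539 with WD6305, lower by 11.9% with no overlap. Over the 12 SRSF genes the sums were 560.2, 554 and 556 and then 518, 503 and 504, lower by 8.69% with no overlap. The SRSF difference was -7.10% without SRSF2, the most abundant SR member, and -6.03% as a sum of CPM.

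**Figure D3:**
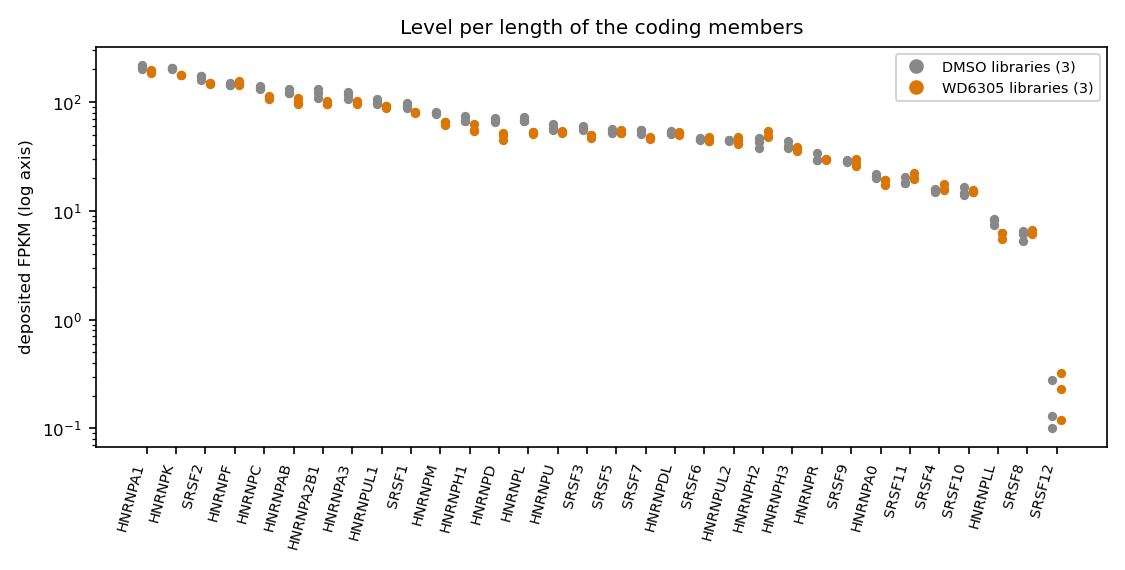
Deposited FPKM on a log axis for the 32 ordinary members, ordered by DMSO mean, with 3 DMSO libraries in grey and 3 WD6305 libraries in orange. HNRNPA1 at 212 FPKM leads and SRSF12 at 0.170 FPKM stands far below the rest.

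The order of levels depends on the length the authors divided by. For the 29 members with at least 10 FPKM in every library, the length implied by count and FPKM differed by at most 1.69% between libraries, so 1 length per gene was used. Worked out with the summed deposited counts as depth, this length is approximate. HNRNPA0, with 1 listed transcript, got 9249 bases, where its longest coding transcript in GENCODE release 29 has 8726. The implied length was 23899 bases for HNRNPU, 13389 for HNRNPA2B1 and 10067 for HNRNPH1. For these genes the median coding transcript of that release has 3163, 3518 and 741 bases. By CPM per kilobase of that median transcript, HNRNPA1 was highest at 1797. HNRNPH1 moved from rank 12 to rank 2 and SRSF2 from rank 3 to rank 11. The median is short for HNRNPA1 and HNRNPH1, at 832 and 741 bases, where their longest coding transcripts have 4121 and 3667 bases. These ranks therefore hold for the median length only, and ranks by the longest transcript were not computed. Fold changes do not depend on these lengths.

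The core of the m6A consensus, GGACT in DNA letters, occurred at a median of 0.718 per kilobase in the longest coding transcripts of the 32 ordinary members, against 0.936 in 13411 tested genes with such a transcript. The 14 members that fell had a median of 0.800 and the other 18 a median of 0.718. HNRNPA2B1, HNRNPAB and HNRNPM, which fell, hold 0 copies, and SRSF9, which did not pass, has the highest density at 3.33 per kilobase. These are letters in annotated transcripts, not measured marks.

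Members of the same family were compared within each library by the log2 ratio of their CPM, in 14 pairs chosen after the values were seen. The ratio of HNRNPD to HNRNPDL was 0.73, 0.71 and 0.73 with DMSO and 0.12, 0.39 and 0.26 with WD6305, a difference of -0.46 (SE 0.08). The ratio of HNRNPH1 to HNRNPH2 fell by 0.51 (SE 0.14), that of HNRNPH1 to HNRNPF by 0.29 (SE 0.10) and that of HNRNPM to HNRNPR by 0.24 (SE 0.06). The groups did not overlap for 8 of 14 pairs. Each of these 8 gave an exact two-sided permutation p of 0.10, the smallest possible here, and 0.175 after Benjamini-Hochberg adjustment over 14 pairs. Among single tested genes with a mean FPKM of at least 5, 57.0% did not overlap. The share over other pairs of genes was not computed. The ratios of SRSF3 to SRSF7 and of HNRNPA3 to HNRNPA1 moved by -0.04 (SE 0.04) and -0.06 (SE 0.04), with overlap.

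**Figure D4:**
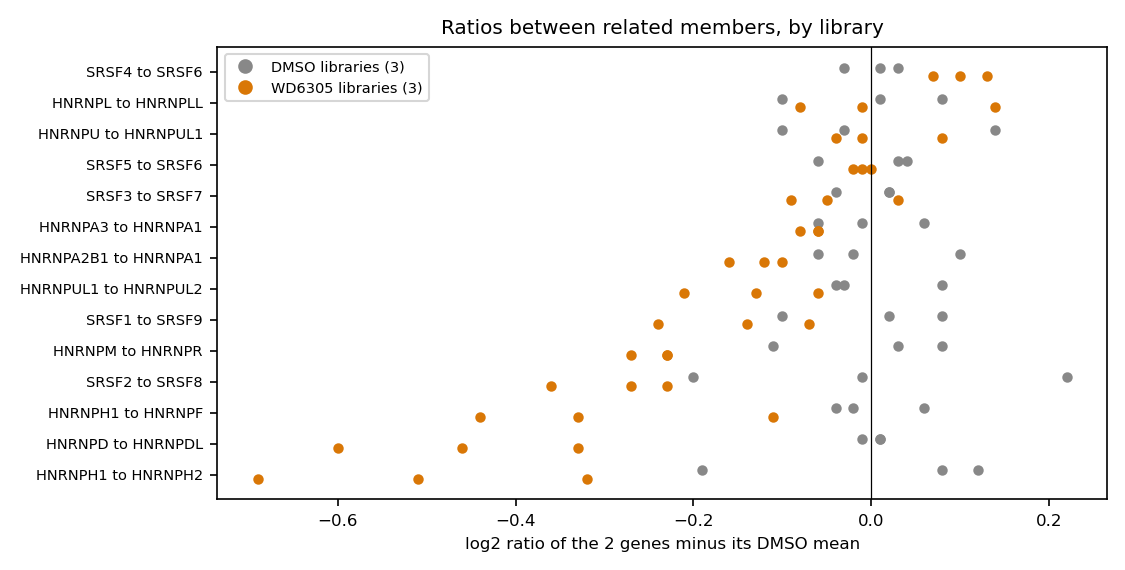
Log2 CPM ratio of 14 pairs of members of the same family minus its DMSO mean, with DMSO libraries in grey and WD6305 libraries in orange. The ratios of HNRNPH1 to HNRNPH2 and of HNRNPD to HNRNPDL shifted furthest, by -0.51 and -0.46, while HNRNPL to HNRNPLL stayed around 0.

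Other splicing genes were followed in 6 lists of 156 genes, of which 156 were tested, 53 fell and 14 rose. The falls are 34.0% of these genes, against 11.2% of all genes tested and 21.2% of those with a mean FPKM of at least 5. The rises are 8.97%, under the 12.2% of all genes tested and the 18.8% of those with a mean FPKM of at least 5. The rises numbered 26 without DMSO 3, 22 without both DMSO 3 and WD6305 1, and 5 to 9 without any other library, and the falls numbered 35 without WD6305 3. In the list of SR protein kinases and SR-related factors 4 of 25 fell and 2 rose (median log2 fold change -0.01). The share of this list that fell lies above the 11.2% of all genes tested. It lies under the 21.2% of those with a mean FPKM of at least 5. The share that rose lies under both the 12.2% and the 18.8% called higher in those sets. The genes that rose are CLK1 and CLK4, nuclear kinases that phosphorylate SR proteins, from 58.5 ± 2.78 to 76.9 ± 1.84 CPM (log2 fold change 0.39, edgeR adjusted p = 0.00154) and from 17.9 ± 1.47 to 25.9 ± 1.38 CPM (log2 fold change 0.53, edgeR adjusted p = 0.00259). RNPS1, a cofactor of the exon junction complex, and SCAF1 fell by 0.35 and 0.25 on the log2 scale. In this list 8 genes rose without DMSO 3 and 7 without DMSO 3 and WD6305 1 together, and 1 or 2 fell without any 1 library.

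Among other RNA-binding splicing regulators 12 of 34 fell and 5 rose (median -0.15). The falls are 35.3%, against 11.2% of all genes tested and 21.2% of those with a mean FPKM of at least 5. The rises are 14.7%, between the 12.2% and 18.8% called higher in those 2 sets. PCBP2, a poly(C)-binding relative of HNRNPK, fell from 492 ± 24.4 to 370.3 ± 19.8 CPM, and KHSRP, RBM10 and EWSR1 had log2 fold changes of -0.35, -0.31 and -0.27. PTBP1, the polypyrimidine tract protein once named hnRNP I, fell by 0.32 and its relative PTBP3 rose by 0.40, both chosen after their values were seen. In this list 6 fell without WD6305 3 and 7 without WD6305 2, and 1 or 2 rose without any 1 library other than DMSO 3.

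Each of the 3 core spliceosome lists held more falls than rises. In the order below, 40.0%, 42.9% and 41.4% of their genes fell and 8.00%, 7.14% and 6.90% rose. Among tested genes with a mean FPKM of at least 5, 21.2% fell and 18.8% rose. Among all genes tested it was 11.2% and 12.2%. Of 25 genes of U1, U2 and branch point recognition 10 fell and 2 rose, LUC7L3 and SF3B5, with PUF60, SNRPA1, SF3B3 and SF1 between -0.36 and -0.26. Of 28 genes of the Sm core and its assembly 12 fell and 2 rose, GEMIN6 and LSM8. PRMT5, the methyltransferase that prepares Sm proteins, fell from 212 ± 7.76 to 138 ± 7.40 CPM (log2 fold change -0.62, edgeR adjusted p = 0.000132), and GEMIN5, LSM4 and SNRPD1 had -0.60, -0.48 and -0.36. Of 29 genes of the tri-snRNP, the PRPF19 complex and the helicases 12 fell and 2 rose, BCAS2 and SYF2. PRPF19 fell from 278 ± 6.34 to 192 ± 4.33 CPM, and PRPF8, the scaffold at the spliceosome's catalytic centre, PRPF6 and SNRNP200 fell by 0.41, 0.36 and 0.28. Among the rises, 1 was called in the U1 and U2 list without DMSO 2 or any WD6305 library, and 0 in the Sm list without WD6305 1 and 1 without DMSO 2 or WD6305 3. The tri-snRNP list had 5 rises without DMSO 3 and 1 without any other library. The medians of these 3 lists were -0.13, -0.25 and -0.13. That of all genes tested was 0.00, and that of genes with a mean FPKM of at least 5 was -0.02.

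Of 15 genes of nonsense-mediated decay and the exon junction complex 3 fell (UPF1, EIF4A3 and SMG5) and 1 rose (UPF3B), with a median of -0.09. The share that fell, 3 of 15, is near the 21.2% called lower among genes with a mean FPKM of at least 5. The share that rose, 6.67%, lies under the 18.8% called higher among those genes. In this list 2 genes rose without DMSO 3 and 0 without any other library.

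**Figure D5:**
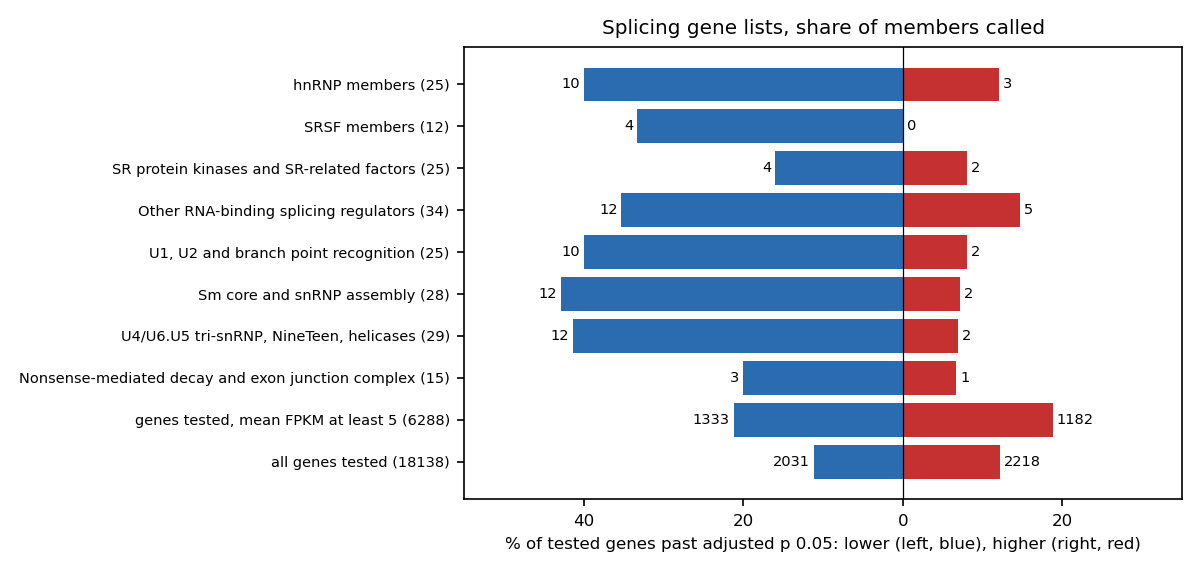
Share of tested genes called lower (blue, left) and higher (red, right) under WD6305 for both families, the 6 splicing lists, the tested genes with a mean FPKM of at least 5 and all genes tested; numbers beside bars are genes called and those in brackets are genes tested. The HNRNP and SRSF bars reach 40.0% and 33.3% lower, that of genes with a mean FPKM of at least 5 reaches 21.2% and that of all genes 11.2%.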

How the data were processed

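RNA of 6 libraries was sequenced as 150-base read pairs, per the labels' protocols, after poly(A) selection and with a dUTP second strand. The submitters' processing notes name GRCh38 and the tools edgeR, fastp, HISAT2 and StringTie, without versions or roles. The authors deposited 1 estimated count and 1 FPKM value per gene and library, with 0 further sample columns. The deposited estimated counts are whole numbers that pile up at 4 among low genes (1071 to 1176 genes per library at a count of 4, against 553 to 636 at 3), so they were treated as estimates and errors rest on how libraries of a group differ. FPKM was normalised by the authors to gene length and depth.

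Counts were kept with filterByExpr, scaled with TMM and tested with edgeR 4.0.16 under R 4.3.3 (quasi-likelihood, two-sided, no replicate block), over all 18138 genes that passed. CPM are relative to the TMM-scaled library size. Intervals are 95% from the quasi-likelihood fit. Libraries of a group differed by more than counting noise (chi-square per degree of freedom of 3.77 to 10.4 on counts divided by 4). The fit was tested on simulated data. Alternatives used DESeq2 1.42.0, limma 3.58.1 on log2(FPKM + 1) or log2(FPKM + 0.1), other filters, scalings and library subsets. Members passing the test, HNRNPC and HNRNPA2B1 are given per library, the 5 highest per length and those with an absolute log2 fold change over 0.3 by name, and up to 4 genes per list; other members are named to account for them. In lists of 5 or fewer calls in 1 direction, names outside that rule were chosen after their values were seen. The members and lists were chosen with earlier results of these data known.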

Additional observations from a re-analysis of the deposited data

How the results depend on the processing

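Of 17 alternatives, 6 members kept their call in every one (HNRNPAB, HNRNPC, HNRNPD, HNRNPL, HNRNPLL and HNRNPM), and no member that passed changed sign in any. HNRNP rows called lower numbered 6 to 8 and rows called higher 1 to 2 with 1 library left out, and SRSF genes 0 to 4 lower and 0 to 1 higher. HNRNP rows called higher were 1 with limma at either pseudocount, where HNRNPA1L2 was not among the genes tested. With no filter on low counts, 1 HNRNP row was called higher and 2 SRSF genes lower. SRSF genes called lower were 2 in the 4 libraries without DMSO 3 and WD6305 1, and 1 SRSF gene was called higher with a term for those 2 libraries. Other causes of these shifts were not tested.

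Over all genes, 1446 to 2563 were called higher and 1310 to 2077 lower with 1 library left out, the fewest of each without WD6305 3, and 1427 were higher among genes of at least 5 FPKM, where fewer genes are tested. In the 6 splicing lists, genes called higher were 5 to 26 and lower 35 to 55 with 1 library left out, and higher were 8 with no filter, 22 in the 4 libraries and 23 with the term. The SRSF sum moved from a log2 ratio of -0.13 to -0.11 without SRSF2 and to -0.09 as CPM.

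The replicate numbers are in the labels of both treatments, but same-numbered libraries did not deviate together across genes (r of -0.235, -0.00772 and -0.229). The highest correlation was between DMSO 3 and WD6305 1 (r of 0.271), the libraries without the keratinocyte signal. With 3 libraries per treatment, this check cannot show whether same-numbered libraries were handled together. With the replicate number as a block, 6 HNRNP rows and 0 SRSF genes were called lower, and 8 splicing-list genes higher; 9 members lost their call (edgeR adjusted p = 0.0502 to 0.0989). No library correlated best with its own number. SRSF12, HNRNPD-DT, HNRNPK-AS1 and HNRNPA1L2 have few counts, and their intervals are wide.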
